A study of Mus musculus with 8 samples.

Results

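B cells and the follicles they gather in were represented by 9 genes, taken by symbol from the 49585 gene rows of each library: Cxcl13, Cxcr5, Cr2, Cd79a, Cd22, Ms4a1, Blk, Bank1 and Pax5. Whole pituitary of wild-type (WT) C57BL/6 mice was profiled by bulk mRNA sequencing in 4 young (2 to 3 months) and 4 old (18 to 24 months) samples. The mice were kept in a Specific Pathogen Free facility on chow and, by the study's text, were perfused to clear blood from the gland. No allele was altered and no agent was given in either age, so age is the comparison. The labels used here do not say that each sample was a separate mouse, so that a p-value here speaks of the spread among these samples only. Bulk RNA averages over all cells of the gland, and in it fewer cells of a type and less RNA per cell cannot be told apart.

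A B cell carries an antibody on its surface as its antigen receptor, and the signal passes into the cell through the paired chains encoded by Cd79a and Cd79b. B cells move into follicles, the B cell areas of lymph node and spleen, along the chemokine CXCL13, which stromal cells release and which B cells sense through the receptor CXCR5. Follicle-like clusters of B cells can also form in chronically inflamed or aged organs outside the lymphoid system. The healthy pituitary is an endocrine gland and is not known for B cell follicles.

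Levels are given as FPKM, the fragments of a gene scaled to its exon length and to the library total, as deposited. The 8 libraries held 15042321 to 20429604 fragments. The number of fragments behind a value was recovered from the FPKM, the exon length and the library total, and is given because these genes were sparsely sampled. Old and young samples were compared with limma on log2(FPKM + 0.1), where a mean of at least 0.1 FPKM over all samples was required, which 4 of the 9 genes (Cxcl13, Cd79a, Cd22 and Cxcr5) met. The p-values were adjusted over all 23498 genes tested, and a call needs an adjusted p under 0.05. Over all genes tested the log2 difference had a median of 0.15, and of 0.00 after trimmed-mean scaling. The test called 436 genes higher and 111 lower in old pituitary, against 201 higher and 224 lower with that scaling.

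None of the 4 genes tested passed the limma test (0 of 4 called), where 1.86% of all genes tested were called higher in old pituitary. At an unadjusted p under 0.05, 3 of the 4 (Cxcl13, Cd79a and Cd22) were higher in old pituitary, beside 18.0% of all genes tested. With limma-voom on the recovered fragments, Cxcl13 and Cd79a were called, 2 of the 4, beside 5.46% of the genes in that fit. Cxcl13 and Cd79a also had each old library above each young one, as did 13.4% of all genes tested. None of the 5 genes under the filter had this separation, beside 1.64% of all rows under the filter.

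The sequences before the starts of Cxcl13 and Cd79a are shown because these members had the highest mean level over all samples. They come from RefSeq promoters of GRCm38.p6, whose table matched 6 of the 9 symbols, without Blk, Cxcr5 and Ms4a1. The Cxcl13 stretch, chr5:95956689-95956938 on the + strand, is the 250 bases before the RefSeq start. Its capitals mark TATAAATA, a TATA box form, 46 bases before the start, and GGGAGATT, the opening letters of a kappaB form described for the RelB-p52 dimer at this promoter, 114 bases before the start. The Cd79a stretch, chr7:24897247-24897380 on the + strand, is 134 bases and stops where the GENCODE gene begins. Its capitals mark CAAGGGAA, part of the site of early B cell factor in this promoter, 174 bases before the RefSeq start.
Cxcl13: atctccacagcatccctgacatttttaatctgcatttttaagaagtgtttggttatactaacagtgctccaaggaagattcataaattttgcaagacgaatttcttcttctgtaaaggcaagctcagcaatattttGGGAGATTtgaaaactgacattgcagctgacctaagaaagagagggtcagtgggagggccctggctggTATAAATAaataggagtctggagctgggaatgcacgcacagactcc
Cd79a: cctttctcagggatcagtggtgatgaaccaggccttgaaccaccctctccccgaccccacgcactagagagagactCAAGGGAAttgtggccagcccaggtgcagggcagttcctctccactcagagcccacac
These letters were chosen with the sequences in view and were searched on both strands of the 250 bases before each start. TATAAATA was found in 1.56% of all 32851 promoters, GGGAGATT in 0.791% and CAAGGGAA in 1.26%. Of the 6 members with a promoter, these letters were in Cxcl13 and Cd79a and in none of Bank1, Cd22, Cr2 and Pax5. The octamer ATGCAAAT was in none of the 6 and in 1.60% of all promoters. A match is a description of the letters and no evidence of binding.

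Cxcl13, the chemokine that draws B cells into follicles, had the largest difference of the 4 genes tested. It lies on chromosome 5 from 95956951 to 95961068 (GRCm38). Its level was 0.202, 0.347, 0.0426 and 0.380 FPKM in young replicates 1 to 4 and 0.918, 2.07, 1.08 and 0.994 FPKM in old replicates 1 to 4. Every old sample lay above every young one, and old replicate 2 stood above the other 3 old samples. The mean of the young samples was 0.243 ± 0.154 FPKM and that of the old samples 1.27 ± 0.540 FPKM (SD, n = 4 each), a 5.21-fold difference. These levels rest on 19 fragments in the young and 105 in the old libraries together. On the log2(FPKM + 0.1) scale the difference was 2.07 (standard error 0.43, 95% interval 1.08 to 3.06), or 1.92 above the median of all genes, with an adjusted p of 0.054 from limma. The adjusted p from limma-voom was 0.0096. Without old replicate 2 the limma difference was 1.82 (adjusted p = 0.12).

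Cxcr5, the receptor for CXCL13 on B cells and follicular T cells, did not pass the test. It lies on chromosome 9 from 44511787 to 44561877. Its level was 0.157, 0.0599, 0.0588 and 0.0492 FPKM in the young samples and 0.0746, 0.244, 0.0467 and 0.172 FPKM in the old samples. The ages overlapped: young replicate 1 lay above old replicates 1 and 3, and old replicate 3 was the lowest of all 8. The log2 difference was 0.32 (standard error 0.31, adjusted p = 0.57 from limma), with a 95% interval of -0.39 to 1.04. The limma-voom adjusted p was 0.59. Of its exon bases, 3.30% are shared with Bcl9l on the opposite strand. Whether the counting used strand is not stated in the sources at hand.

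Cr2 encodes complement receptor 2 (CD21), which is found on mature B cells and on the follicular dendritic cells that hold antigen in follicles. Its level was 0.0574, 0.0328, 0.0543 and 0.0135 FPKM in the young samples and 0.0383, 0.0867, 0.0448 and 0.0846 FPKM in the old samples. Old replicates 2 and 4 were above all young samples, and old replicates 1 and 3 were below young replicates 1 and 3. With 23 fragments in the young and 37 in the old libraries, the means did not separate in an exact two-sided permutation test (p = 0.23). This test over the 70 splits of 8 samples cannot give a p below 0.029.

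**Figure D1:**
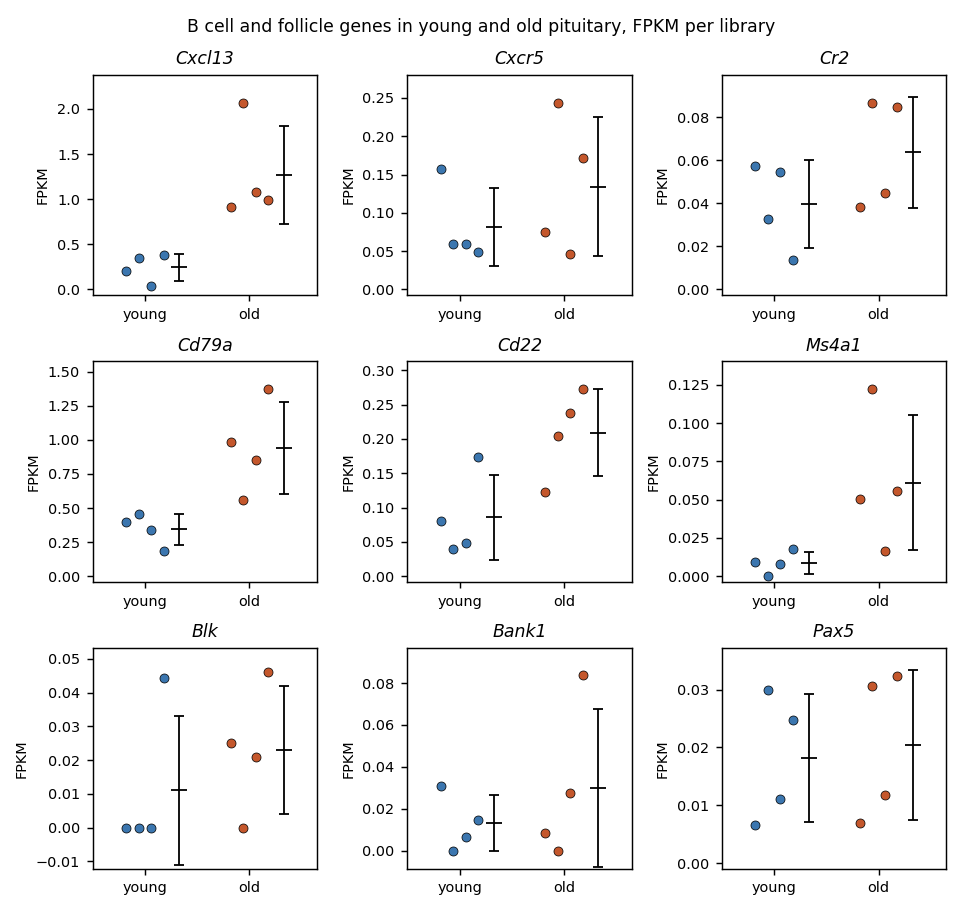
FPKM of the 9 genes in each library (points, replicates 1 to 4 from left to right within young and old), with the mean and SD of each age (bar with caps, n = 4). Only Cxcl13 and Cd79a have all old points above all young points; the y axis differs between panels, and SD bars that reach below 0 are a product of the spread, since no FPKM is negative.

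Cd79a, the alpha chain that signals for the B cell receptor, was the other gene with separated ages. It lies on chromosome 7 from 24897381 to 24902197. Its level was 0.399, 0.456, 0.336 and 0.188 FPKM in the young samples and 0.981, 0.557, 0.855 and 1.37 FPKM in the old samples. The lowest old sample, replicate 2, was the one with the most Cxcl13, and the highest was old replicate 4. The means were 0.345 ± 0.116 and 0.941 ± 0.338 FPKM (SD, n = 4 each), a 2.73-fold difference that rests on 35 and 97 fragments. The log2 difference was 1.21 (standard error 0.29, 95% interval 0.53 to 1.89), or 1.06 above the median of all genes, with an adjusted p of 0.074 from limma and 0.040 from limma-voom.

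Cd22 encodes an inhibitory receptor that dampens signalling from the B cell receptor. It lies on chromosome 7 from 30865402 to 30880342, and 9.50% of its exon bases are shared with Gm29439 on the opposite strand. Its level was 0.0808, 0.0396, 0.0485 and 0.174 FPKM in the young samples and 0.123, 0.204, 0.237 and 0.272 FPKM in the old samples. The 3 highest samples were old, and young replicate 4 lay above old replicate 1. The means were 0.0856 ± 0.0612 and 0.209 ± 0.0636 FPKM (SD, n = 4 each), with 31 and 76 fragments behind them. The log2 difference was 0.76 (standard error 0.25), with an adjusted p of 0.14 from limma and 0.066 from limma-voom.

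Ms4a1 encodes CD20, a surface protein used as a B cell marker. It lies on chromosome 19 from 11249675 to 11266241. The young libraries held 1, 0, 1 and 2 fragments of it and the old libraries 5, 14, 2 and 6. In FPKM these were 0.00940, 0, 0.00791 and 0.0177 in the young and 0.0502, 0.122, 0.0168 and 0.0554 in the old samples. Old replicate 3 fell just under young replicate 4, and the other 3 old samples were above all young ones. The difference of means did not pass an exact two-sided permutation test (p = 0.057), and the adjusted p from limma-voom without a filter, a fit added after the data had been seen, was 0.057.

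Blk, a Src-family kinase of B cells, and Bank1, a scaffold that carries the receptor's signal, were close to the limit of detection. The smallest whole numbers of fragments that fit Blk were 0, 0, 0 and 2 in the young and 1, 0, 1 and 2 in the old libraries, since its annotated exon length did not give whole fragments. For Bank1 the young libraries held 4, 0, 1 and 2 fragments and the old ones 1, 0, 4 and 11, so most of the old fragments came from old replicate 4. A count of 0 allows up to 3 fragments, which is 0.0599 to 0.0814 FPKM for Blk and 0.0196 to 0.0266 FPKM for Bank1 in these libraries and covers counting error only. The exact two-sided permutation p was 0.37 for Blk and 0.60 for Bank1, and a difference was not detectable at this depth.

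Pax5, the transcription factor that fixes B cell identity, was about as low in both ages. It lies on chromosome 4 from 44524757 to 44710487. The young libraries held 1, 4, 2 and 4 fragments and the old libraries 1, 5, 2 and 5. The young mean was 0.0181 ± 0.0111 FPKM and the old mean 0.0204 ± 0.0129 FPKM (SD, n = 4 each; exact two-sided permutation p = 0.60). The direction of this difference turned when any of 4 samples was left out.

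**Figure D2:**
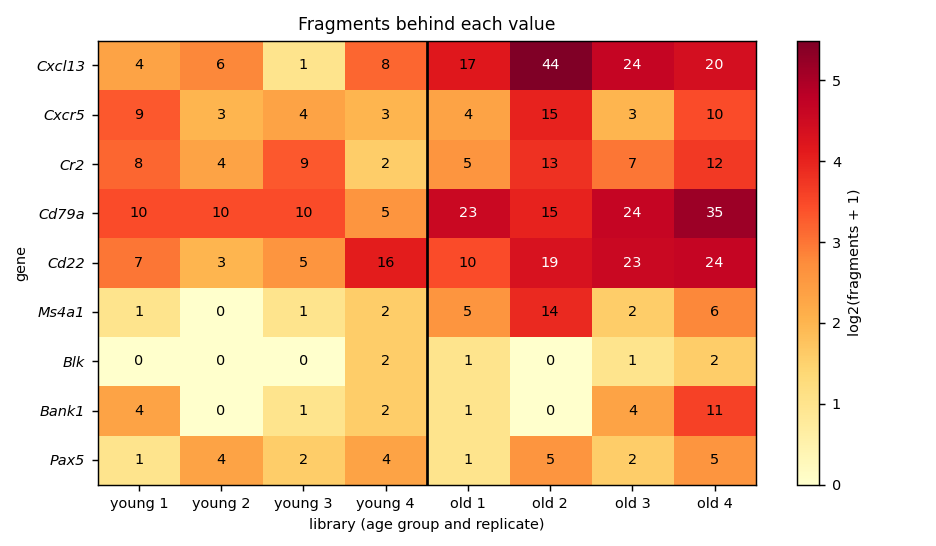
Fragments of each gene (rows) in each library (columns, young left and old right of the line), with colour on a log2(fragments + 1) scale. The Cxcl13 row reaches 44 fragments in old replicate 2 and the Cd79a row 35 in old replicate 4, and most cells of the Ms4a1, Blk, Bank1 and Pax5 rows hold 5 fragments or fewer.

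Over the 9 genes the young libraries held 30 to 44 fragments and the old libraries 67 to 125. Their summed level was 0.566 to 0.965 FPKM in the young and 2.23 to 3.31 FPKM in the old samples. Without Cxcl13 and Cd79a, the other 7 genes summed to 0.162 to 0.342 FPKM in the young and 0.327 to 0.746 FPKM in the old samples, and these ranges overlapped. The order of mean levels over all samples ran from Cxcl13 (0.755 FPKM) and Cd79a (0.643) through Cd22 (0.147), Cxcr5 (0.108) and Cr2 (0.0515) to Ms4a1 (0.0350), Bank1 (0.0215), Pax5 (0.0192) and Blk (0.0171). This order pools the ages and changes with them: over the young samples the mean of Cd79a (0.345 FPKM) was above that of Cxcl13 (0.243), and Ms4a1 (0.00875) was lowest, below Pax5 (0.0181), Bank1 (0.0131) and Blk (0.0110). Over the old samples Ms4a1 (0.0612) was above Bank1 (0.0300), Blk (0.0231) and Pax5 (0.0204). The ranges of neighbours in the pooled order overlapped within each age, except those of Cd79a and Cd22. Compared within each sample, Cd79a lay above Cd22 and Cxcr5 above Cr2 in every sample of both ages. The order of the other neighbours changed between samples.

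The highest sample was an old one for each of the 9 genes, but not the same one. Old replicate 2 had the most Cxcl13, Cxcr5, Cr2 and Ms4a1, and old replicate 4 the most Cd79a, Cd22, Blk, Bank1 and Pax5. The antibody genes Igkc (32.4 FPKM), Igha (12.1) and Jchain (2.41) were also highest in old replicate 2. Ighm was highest in old replicate 1 (3.79 FPKM) and Ighd in young replicate 4 (0.201 FPKM). These are single samples, and no test was made of the split.

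For the 2 members with the highest mean level, the genes with the most alike pattern over the 8 libraries were taken by Pearson's r of log2(FPKM + 0.1). For Cxcl13 these were Primpol (r = 0.985), Kdm3a (0.982) and Zfp112 (0.981), and 271 genes had an r above 0.9. For Cd79a they were Camkmt (0.982), Kcnd3os (0.981) and Gimap6 (0.978), and 85 genes had an r above 0.9. The libraries share their age groups and depths across genes, so these values describe likeness of pattern alone.

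Cd79a and Cd79b, whose products work as a pair, lay on opposite sides of the comparison. Cd79b was at 2.19, 1.58, 2.36 and 2.64 FPKM in the young samples and at 1.35, 1.36, 1.16 and 1.32 FPKM in the old samples. Every old sample was below every young one, with 226 fragments in the young and 132 in the old libraries. The log2 difference was -0.70 (standard error 0.16, adjusted p = 0.067 from limma), and it was -0.85 with trimmed-mean scaling, where it passed the test (adjusted p = 0.032 from limma). The ratio of Cd79a to Cd79b, which does not depend on library scaling, was 0.0712 to 0.289 in the young and 0.409 to 1.04 in the old samples, given without a test because it was chosen after the values were seen. Cd79b lies on chromosome 11 from 106311341 to 106314762, 9.5 kb from Gh, the growth hormone gene, on the same strand, and its exons share no base with another GENCODE M21 gene. Gh was at 57498 to 70106 FPKM in the young and 20301 to 27936 FPKM in the old samples, and its part in the Cd79b values was not tested.

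**Figure D3:**
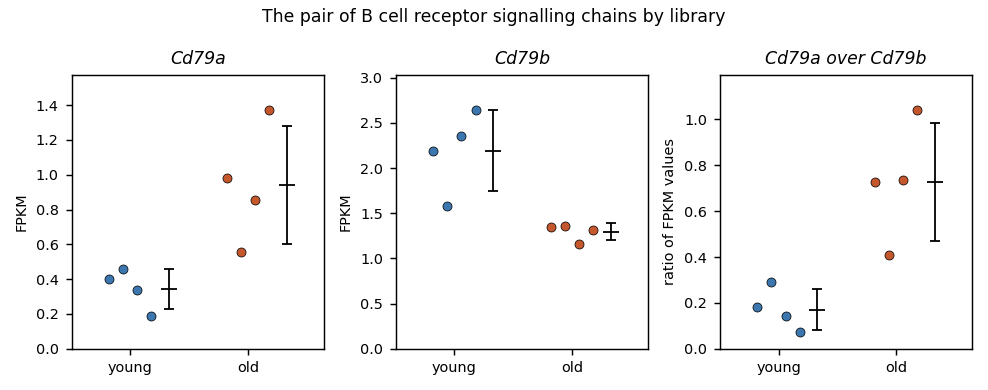
FPKM of Cd79a (left) and Cd79b (middle) and the ratio of the pair (right) in each library (points, replicates 1 to 4 from left to right), with mean and SD of each age (n = 4). Cd79a and the ratio are higher in all old samples and Cd79b is lower in all of them, and Cd79b exceeds Cd79a in every sample except old replicate 4, where the ratio is 1.04.

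The other receptor, coreceptor and signalling genes of B cells were 23, of which 17 were tested. Of these, 4 rose, among them Ighm, Syk and Btk, none fell, and the median log2 difference of the 17 was 0.43, against 0.15 over all genes tested. At an unadjusted p under 0.05, 11 were higher and 2 lower (limma), and limma-voom called 6 higher and none lower of the 16 in its fit. Ighm, the constant gene of the IgM heavy chain, spanned 0.705 to 1.35 FPKM among the young and 2.97 to 3.79 FPKM among the old samples (log2 difference 1.70, adjusted p = 0.011 from limma). The kinases Syk (0.89) and Btk (0.88) each had an adjusted p of 0.049 from limma. With each sample left out in turn, Ighm passed in all 8 fits (adjusted p = 0.013 to 0.040), Btk in 1 (0.037 to 0.13) and Syk in none (0.071 to 0.12). Syk and Btk also work in macrophages.

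The lineage markers in that list were sparse. Ighd, the constant gene of the IgD heavy chain of naive B cells, had 15 fragments over the young libraries and 9 over the old ones. Fcrl1, an Fc receptor-like protein of B cells, had 11 and 37 fragments, and all old samples (0.0803 to 0.262 FPKM) were above all young ones (0 to 0.0614 FPKM). Fcrl1 was singled out after its values were seen, and 1.64% of all rows under the filter were separated in this direction. The other genes of the list under the filter overlapped between the ages, such as Fcer2a (10 and 11 fragments), Fcrla (5 and 3) and Siglecg (4 and 6). Of the 12 B cell markers fixed for this work, Cd79a, Cd79b, Cd22 and Cxcr5 reached the filter, and Ms4a1, which is widely used to sort B cells, did not.

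Among 16 transcription factors and regulators of B cells, 12 were tested, 2 rose and none fell, with a median log2 difference of 0.32. Limma-voom called 3 higher and none lower of the 11 in its fit. Irf8 spanned 0.330 to 0.479 FPKM among the young and 0.662 to 0.872 FPKM among the old samples (log2 difference 0.82, adjusted p = 0.027 from limma). Spi1, which encodes PU.1, had a log2 difference of 1.08 (adjusted p = 0.049 from limma). With a sample left out, each passed in 1 of 8 fits (adjusted p = 0.045 to 0.081 for Irf8 and 0.048 to 0.13 for Spi1, limma). Both factors act in B cells and in macrophages.

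**Figure D4:**
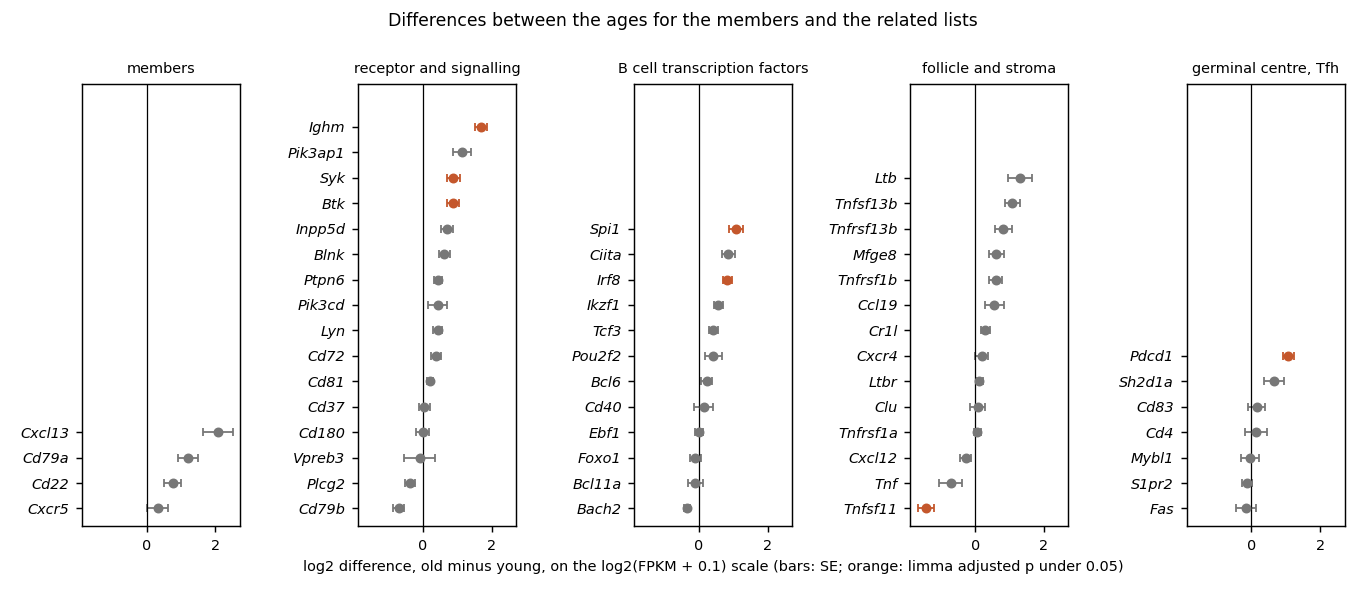
Log2 difference between old and young pituitary (points) with its standard error (bars) for the 4 members tested and tested genes of 4 related lists, each panel sorted by size. Orange points pass the limma test at an adjusted p under 0.05: 3 of the 16 receptor and signalling genes plotted, 2 of 12 transcription factors, 1 of 14 follicle and stroma genes (Tnfsf11, to the left of 0) and 1 of 7 germinal centre and T follicular helper genes, and no member.

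Genes that build or maintain follicles beside Cxcl13 were 21, of which 14 were tested. In limma none rose and 1 fell, and the median log2 difference was 0.24, while 6 were higher and 1 lower at an unadjusted p under 0.05. Limma-voom called 3 higher and 1 lower of the 12 in its fit. Tnfsf11, which encodes RANKL, a cytokine of lymphoid organ formation and bone turnover, spanned 0.234 to 0.503 FPKM among the young and 0.0256 to 0.121 FPKM among the old samples (log2 difference -1.43, adjusted p = 0.034 from limma), and it did not pass with any sample left out (0.058 to 0.093). Singled out after their values were seen, Tnfsf13b, which encodes the B cell survival factor BAFF, had a difference of 1.08 (adjusted p = 0.055 from limma and 0.0093 from limma-voom), and Ltb, a lymphotoxin chain, had 1.30 (adjusted p = 0.095 from limma and 0.039 from limma-voom). Of the 14 tested, 11 had a difference above 0. Besides Tnfsf11, those below 0 were Tnf (-0.71, adjusted p = 0.26 from limma) and Cxcl12 (-0.27, adjusted p = 0.36 from limma). Ccl21a, a chemokine of T cell areas, was listed at 0 in all 8 libraries. Its symbol matched no single GENCODE M21 gene and how its reads were assigned was not tested, so this 0 does not show absence.

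Germinal centre and T follicular helper genes were 14, of which 7 were tested. Pdcd1, the receptor PD-1, rose with a log2 difference of 1.08 (adjusted p = 0.025 from limma), from 5 fragments in the young to 25 in the old libraries. It passed in 3 of the 5 fits with a sample left out in which it reached the filter (adjusted p = 0.026 to 0.079). None fell, the median log2 difference was 0.14, and limma-voom called 1 higher and none lower of the 5 in its fit. Cd40lg and Gcsam had no fragment in any library.

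Of 10 plasma cell and antibody genes, 8 were tested and 4 rose (Igha, Igkc, Jchain and Slamf7), with a median log2 difference of 0.89. Limma-voom called 5 higher and 1 lower of the 6 in its fit. The lower one, named after its values were seen, was Sdc1, which encodes the plasma cell surface protein CD138 and is also found on epithelial cells. Its level was 3.09 to 3.88 FPKM in the young and 1.58 to 2.91 FPKM in the old samples, so that each old sample lay below each young one (log2 difference -0.66, adjusted p = 0.12 from limma and 0.024 from limma-voom). The Igkc level averaged 0.840 FPKM over the young and 24.8 FPKM over the old samples, and Igha was at 0.128 to 0.199 and 5.57 to 12.1 FPKM. Jchain, which joins IgA or IgM into multimers, was at 0.0231 to 0.175 and 0.477 to 2.41 FPKM (log2 difference 2.84, adjusted p = 0.028 from limma), and Slamf7 had a difference of 0.96 (adjusted p = 0.034). Igkc and Igha passed with any sample left out, Jchain in 1 of 8 such fits (adjusted p = 0.020 to 0.076) and Slamf7 in 2 (0.024 to 0.099). The difference of Cxcl13, 2.07, lay between those of Jchain and Ighm.

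Markers of some other cell types also differed between the ages in the same libraries. Ptprc, which encodes CD45 on all leukocytes, rose from 0.171 to 0.305 FPKM in the young to 0.490 to 0.675 FPKM in the old samples (log2 difference 1.01, adjusted p = 0.028 from limma), and passed in 2 of 8 fits with a sample left out (0.040 to 0.085). Of 11 macrophage markers 10 were tested and 3 rose (Fcgr1, C1qb and Lyz2), 9 were higher at an unadjusted p under 0.05 in limma, and limma-voom called 6 of the 7 in its fit higher. With a sample left out, Fcgr1 passed in 6 of 8 limma fits (adjusted p = 0.032 to 0.061), C1qb in 3 (0.027 to 0.079) and Lyz2 in 1 (0.036 to 0.12). The summed level of the 11 was 34.3 to 58.9 FPKM in the young and 74.9 to 100 FPKM in the old samples. Of 8 dendritic cell markers 5 were tested and none was called (2 higher at an unadjusted p under 0.05 in limma, and 2 by limma-voom), with sums of 1.13 to 2.03 and 2.38 to 3.40 FPKM. Of 11 T cell markers 5 were tested and none was called (1 higher at an unadjusted p under 0.05 in limma, and none by limma-voom), with sums of 0.762 to 2.13 and 2.70 to 4.02 FPKM. The part of these cells in the values of the 9 genes was not tested.

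Signs of blood overlapped between the ages and varied widely within each. The 7 red blood cell and platelet markers summed to 13.1 to 110 FPKM in the young and 15.9 to 125 FPKM in the old samples, and none of the 6 tested was called (none at an unadjusted p under 0.05 in limma either, and none by limma-voom). Their median log2 difference was 0.83, with 5 of the 6 above 0. With this spread the test cannot show that blood content was alike in both ages. Endothelial markers summed to 61.7 to 87.7 FPKM in the young and 64.6 to 89.6 FPKM in the old samples. Of 7 fibroblast and mesenchymal markers 1 fell (Col1a1, log2 difference -1.55, adjusted p = 0.011 from limma), and limma-voom called 2 lower of the 4 in its fit. The pituitary markers were present at high levels, with a sum of 136003 to 160309 FPKM in the young and 101782 to 130056 FPKM in the old samples, and Gh and Lhb, the beta chain gene of luteinizing hormone, fell. With a sample left out, Gh passed in all 8 limma fits (adjusted p = 0.014 to 0.032) and Lhb in 1 (0.019 to 0.12).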

How the data were processed

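FPKM of 8 bulk mRNA libraries of whole pituitary, 4 young and 4 old, were used. Per the labels and the study's methods, the authors aligned reads with STAR (2.6.1a) to GRCm38, counted them on Ensembl genes with featureCounts, computed FPKM with edgeR (3.28.1) and deposited 49585 rows per library. The sources at hand do not state the Ensembl release, the strand setting or the sex of the mice.

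The deposited values are FPKM, so limma (3.58.1, R 4.3.3) was run on log2(FPKM + 0.1) over genes averaging 0.1 FPKM or more, without a block, a trend or robust weights, with Benjamini-Hochberg adjustment. This scale understates differences of low genes. The 5 members under the filter were compared by exact permutation tests (scipy 1.17.1). Fragments came from GENCODE M21 exon lengths, and 90.3 to 91.4% of values under 100 fragments were whole within 0.01. The fit was tested on simulated data. Libraries of one age differed by more than sampling noise. The alternatives were pseudocounts of 1 and 0.01, no filter, a filter of 0.5, a mean-variance trend, 3 scalings, limma-voom, a replicate block and each library left out.

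The 9 genes and the gene lists were chosen with earlier results of these data known. By rule, all 9 members are named, of each list the genes that passed (up to 6), Igkc, Igha, Ighm, Ighd, Jchain, Cd79b and Ptprc, and 3 genes most like each of 2 members. Not every gene under this rule is reported here.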

Additional observations from a re-analysis of the deposited data

Results flagged for a closer look

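In the group of 4 old samples, Cxcl13 in replicate 2 (2.07 FPKM) stood far above the other 3. Among the young samples, Cxcr5 in replicate 1 (0.157 FPKM, 9 fragments) stood above the rest, and Blk in replicate 4 (0.0442 FPKM, 2 fragments) was the only young sample with a fragment. Each was picked by the gap to its nearest neighbour as a share of the group's range, over 18 groups, of which 3 passed. With no outlier, chance flags about 1 in 20 groups of 4 normally distributed values. Groups of few fragments with ties, as for Blk, need not follow that rate, so the 3 flagged cannot be set against it.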

How the results depend on the processing

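The call on Cxcl13 rests on the setting. It passed the test with a pseudocount of 1 (log2 difference 0.85, adjusted p = 0.032), a filter of 0.5 FPKM (2.07, 0.035), a mean-variance trend with robust weights (2.07, 0.033), limma-voom (2.55, 0.0096) and limma-voom without a filter (2.56, 0.0087). Cd79a passed with the 0.5 filter (1.21, adjusted p = 0.050 after rounding up), limma-voom (1.40, 0.040) and limma-voom without a filter (1.40, 0.048). Members called were thus 1, 2, 1, 2 and 2 under these 5 settings and 0 under the others, including each library left out. Of all genes, these settings called 689 of 23498, 806 of 17320, 704 of 23498, 1052 of 19277 and 983 of 27196 higher. The main fit called 436 of 23498 higher, and the fits with a library left out called 64 to 327. The settings that called members thus also called more genes of the whole table. Of the members, the 0.5 filter kept only Cxcl13 and Cd79a. Over all alternatives the adjusted p was 0.0087 to 0.14 for Cxcl13 and 0.040 to 0.22 for Cd79a. No alternative called Cd22 or Cxcr5 or turned the direction of any of these 4 genes, and Cxcr5 lay under the filter without old replicate 2 or 4. With a library left out, the log2 difference was 1.69 to 2.28 for Cxcl13 and 1.01 to 1.41 for Cd79a. Without young replicate 4, 4 members instead of 2 were separated by age, and 2 to 4 over all samples left out. Separation is easier to reach with fewer samples. The share of all genes separated was not computed with a sample left out, so no conclusion is drawn from this rise. The Pax5 difference of means turned to -0.00154, -4.19e-05, -0.00108 and -0.00166 FPKM without young replicate 1, young replicate 3, old replicate 2 and old replicate 4 (range -0.00166 to 0.00676 over all samples left out). That of Bank1 turned to -0.00105 FPKM without old replicate 4 (range -0.00105 to 0.0270). The causes were not tested.

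Of the genes in the lists, 19 passed the test. The count was 12 with a pseudocount of 0.01, 33 with limma-voom, 34 with limma-voom without a filter, and 5 to 14 with a library left out, lowest without old replicate 2. Calls over the whole table moved the same way, from 436 higher and 111 lower in the main fit. They were 322 and 83 with a pseudocount of 0.01, 1052 and 272 with limma-voom and 983 and 292 with limma-voom without a filter. Without old replicate 2 they were 64 and 33. Syk, Btk and Spi1 passed by a margin so small that Syk passed in 2 of 18 alternatives, Btk in 2 of 18 and Spi1 in 6 of 19. Same-numbered young and old samples did not deviate together (r of -0.04 to 0.04), and with the replicate block 4 genes of the whole table, 1 gene of the lists and no member were called (Cxcl13 adjusted p = 0.14). Library depth limits Ms4a1, Blk, Bank1, Pax5 and Cr2, which rest on at most 14 fragments in any library.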
